A study of Mus musculus with 289 samples.

Results

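Single astrocytes of the adult mouse cortex that carried a guide RNA (gRNA) against the transcription factor gene Trps1 and were taken 7 days after injection were set against astrocytes that carried a control gRNA and were taken at day 21. Both groups came from batch 4, the only batch with a Trps1 gRNA group of day 7. The guide and the day differ together in this comparison, so their parts in any difference cannot be told apart. Of the 289 samples of the series, 31 are labelled Trps1 gRNA at day 7. A total of 15 of these have a column of counts and were analysed, and the other 16 were not analysed here. Libraries 7T_13 and 7T_14 held nearly the same counts (Pearson r 0.993 over genes, against at most 0.615 for any other pair) and were averaged into 1 cell, which leaves 14 cells. Of 17 cells labelled control gRNA at day 21, the 15 with a column were used.

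All mice were adult transgenic animals that express the Cas9 nuclease, and all had received Mok-LV, a lentivirus made to act in astrocytes, with the gRNA, so the control cells carry Cas9, the virus and a gRNA as well. The sources used here do not give the age and number of the animals, the driver of Cas9 or the target of the control gRNA. Each cell was aspirated from the tissue with an electrophysiology pipette and made into a Smart-seq2 library, a full-length method without molecular identifiers. The labels name no animal, so the cells of a group are not replicates, each group was treated as 1 pool, and no test or p-value could be computed. A level is the pool's summed reads of a gene in counts per 1000000 reads in genes (CPM), with an exact 95% Poisson interval in parentheses where given. Intervals cover counting error only, since reads without molecular identifiers are not independent molecules, and they leave out differences between cells and animals. In such summed levels, fewer cells that express a gene and less RNA per cell cannot be told apart, so the share of cells with a read and the lowest, median and highest cell are given beside them.

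The p53 pathway, DNA replication and antigen presentation frame the comparison. The protein p53 is a transcription factor that DNA damage stabilises, and its targets include Cdkn1a, a cell cycle inhibitor, and Mdm2, which returns p53 to low levels. Major histocompatibility complex (MHC) class II molecules present peptides to helper T cells. Their alpha and beta chains assemble with the invariant chain Cd74, H2-DM proteins load the peptide, and the coactivator Ciita switches the genes on. In the brain they are mainly known from microglia and from cells that enter from the blood, and astrocytes make them when interferon gamma acts on them. TRPS1 is a GATA-type zinc finger repressor best known from cartilage and hair.

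The promoters of 2 class II genes are shown because genes of this family lead those that were lower and several of their promoters share a short element. They are RefSeq windows on GRCm38.p6, from 250 bases before to 50 bases after the start of the gene, written 5′ to 3′ on the gene's strand. Capitals mark CTGATTGG, the core of the Y box, an element that the factor NF-Y is known to bind.
H2-Aa promoter (chr17:34287774-34288073, minus strand): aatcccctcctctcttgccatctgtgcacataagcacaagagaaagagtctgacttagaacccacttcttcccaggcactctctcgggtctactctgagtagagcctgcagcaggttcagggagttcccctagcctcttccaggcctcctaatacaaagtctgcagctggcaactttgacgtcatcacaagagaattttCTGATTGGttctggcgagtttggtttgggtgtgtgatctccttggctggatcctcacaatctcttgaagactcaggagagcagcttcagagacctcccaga
H2-Eb1 promoter (chr17:34305617-34305916, plus strand): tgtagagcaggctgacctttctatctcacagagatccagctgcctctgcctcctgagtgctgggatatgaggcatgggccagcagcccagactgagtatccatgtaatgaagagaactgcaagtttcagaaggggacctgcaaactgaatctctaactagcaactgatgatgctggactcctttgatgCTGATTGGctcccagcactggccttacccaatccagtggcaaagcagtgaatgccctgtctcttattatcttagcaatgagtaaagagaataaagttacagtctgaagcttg
The element starts 51 bases before the gene's start in H2-Aa and 62 bases before it in H2-Eb1. Of the 16 genes of the class II list, 12 had a promoter in the table, and 4 of these held CTGATTGG or its reverse complement CCAATCAG. These were H2-Aa, H2-Eb1, H2-Eb2 and H2-Oa. The same letters occurred in 4.10% of all 32851 promoters of this length. A match describes the letters in this window and does not show binding.

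The cells of both groups were sequenced to like depth. Trps1 gRNA cells held 409917 to 2486867 reads in genes (median 1154164), and control gRNA cells held 325744 to 2215814 (median 1025975). The number of genes with a read differed more, with a median of 3401 (1184 to 9139) in Trps1 gRNA cells and 5498 (826 to 11731) in control gRNA cells. Mitochondrial genes took a median of 5.36% of reads in Trps1 gRNA cells, at most 28.4%, and 2.89% in control gRNA cells, at most 5.28%. A single ribosomal RNA gene took 27.8% of the Trps1 gRNA pool and 30.9% of the control gRNA pool. The part of the detected genes and the mitochondrial share in the results was not tested. Library 7T2_4 of the Trps1 gRNA group stood apart, with 0.0386% of its reads in that gene and no read of Apoe, and library 21C3 of the control group held the highest level of oligodendrocyte markers. Xist, which is read from the inactive X chromosome of female cells, had reads in 0 of 14 Trps1 gRNA cells and 8 of 15 control gRNA cells, and the Y-linked gene Ddx3y in 6 of 14 and 0 of 15. The Y-linked gene Kdm5d had reads in 2 of 14 Trps1 gRNA cells, at most 44.4 CPM, and in 3 of 15 control gRNA cells, at most 3.07 CPM. The sex of the animals is not labelled, and its part in the results was not tested.

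The targeted gene was read at a higher level in the cells that carry the guide against it. Trps1 (ENSMUSG00000038679, chromosome 15, 50654752 to 50890463, minus strand) had 118 CPM (113 to 123) in the Trps1 gRNA day 7 pool and 3.35 CPM (2.56 to 4.31) in the control gRNA day 21 pool. Single Trps1 gRNA cells ran from 0 through a median of 0.496 to 2379 CPM, and control gRNA cells from 0 through 0 to 73.7 CPM. A read was found in 7 of 14 Trps1 gRNA cells and 6 of 15 control gRNA cells, so the groups overlapped and 1 cell, 7T_8, set the level. Without the highest cell of each pool the levels were 10.6 and 2.07 CPM. A Cas9 cut can leave the mRNA in place, so the level of Trps1 does not check the label in either direction. Ratios are given as log2 of the Trps1 gRNA pool over the control gRNA pool after 5 CPM was added to both, which draws ratios of low genes towards 0. A gene is called higher or lower where the ratio is at least 2-fold (log2 of 1 or more, or of -1 or less) both with all cells and without the gene's highest cell in each pool. Trps1 met this with a log2 ratio of 3.88, and 1.14 without the highest cells, and the call ended when cell 7T_4, 7T_8 or 7T2_4 was left out, at 0.90 without 7T_8. Every direction below is that of the library group labelled Trps1 gRNA.

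Sox9, a transcription factor of astrocytes that the other guides of the series target, was not targeted in either pool. It had 60.3 CPM (56.6 to 64.1) in the Trps1 gRNA pool, where cells ran from 0 through 0 to 484 CPM, and 177 CPM (171 to 184) in the control gRNA pool, where they ran from 0 through 0.975 to 647 CPM. A read was found in 6 of 14 Trps1 gRNA cells and 9 of 15 control gRNA cells. The log2 ratio was -1.48, and it no longer met the call without control cell 21C1, 21C15 or 21C16, or when each cell was weighted alike (-0.86).

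Over all genes, 10257 had a mean level of at least 5 CPM in the pools. Of these, 1375 (13.4%) were called higher and 1768 (17.2%) lower in Trps1 gRNA day 7 cells, with a median log2 ratio of 0.09. These shares are the background against which the counts below can be read. When each cell was weighted alike, 1150 genes were higher and 2402 lower and the median was -0.30, so the higher calls made up 32.4% of all calls in place of 43.8%. The genes and lists were chosen with earlier results of these data known, and a list's count describes the list beside the background and is no test of it.

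Most MHC class II presentation genes were lower in Trps1 gRNA day 7 cells. Cd74 and the chain genes H2-Aa, H2-Ab1 and H2-Eb1 were at or near 0 in nearly all of these cells and abundant in the control gRNA day 21 pool. Cd74, the invariant chain, had 7.42 CPM (6.18 to 8.84) in the Trps1 gRNA pool and 5009 CPM (4976 to 5041) in the control gRNA pool, a log2 ratio of -8.66. In Trps1 gRNA cells it ran from 0 through 0 to 61.5 CPM, and in control gRNA cells from 0.561 through 2582 to 16394 CPM. Reads were found in 2 of 14 Trps1 gRNA cells (14.3%) and in 15 of 15 control gRNA cells, or in 7.14% and 93.3% of cells when every cell was thinned to 200000 reads. A single Trps1 gRNA cell (7T_16) held nearly all of its reads, and without it the pool had 0.0674 CPM. The groups overlapped through this cell, the other Trps1 gRNA cell with reads (0.699 CPM) and the lowest control gRNA cells, 21C15 at 0.561 and 21C14 at 17.6 CPM. The 2 in-slice controls of batch 4, libraries made without taking a cell, had 5.71 and 6.71 CPM, a level like that of the Trps1 gRNA pool.

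The chains of the class II molecules showed the same difference. H2-Aa (ENSMUSG00000036594), the alpha chain whose promoter is shown above, had 0.119 CPM (0.0144 to 0.429) in the Trps1 gRNA pool, with a read in 2 of 14 cells and no cell above 1.58 CPM. In the control gRNA pool it had 1551 CPM (1533 to 1569), with a read in 13 of 15 cells and a median cell of 1002 CPM. Its partner H2-Ab1 had 25.99 CPM in the Trps1 gRNA pool and 1451 CPM in the control gRNA pool. Of the reads of H2-Ab1 in the Trps1 gRNA pool nearly all came from cell 7T_6 at 289 CPM, and 0.0652 CPM remained without it. H2-Eb1, the beta chain of the second molecule and the other promoter shown, had 0.326 CPM in 4 of 14 Trps1 gRNA cells and 1063 CPM in 14 of 15 control gRNA cells. No chain gene reached 10 CPM in more than 1 Trps1 gRNA cell.

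Peptide loading and regulation followed. H2-DMa had 6.35 CPM in the Trps1 gRNA pool (3 of 14 cells) and 498 CPM in the control gRNA pool (12 of 15 cells). H2-DMb1 had no read in 14 Trps1 gRNA cells and 192 CPM in 7 of 15 control gRNA cells. It was at least 1076-fold lower against a floor of 3 reads over the pool. That floor covers counting only, so such folds do not bound differences between cells or animals. H2-DMb2 likewise had no read and 68.5 CPM, from 3 control gRNA cells, and its call ended without cell 21C2 or 21C5. H2-Oa, Ifi30, a reductase that opens antigens for presentation, Cd83 (161 against 614 CPM) and March1, a ligase that removes class II from the surface, were lower as well. The call of H2-Oa ended without control cell 21C4 or 21C12, and that of March1 without 21C8 or 21C16. Ctss, the protease that trims the invariant chain, had 948 CPM in 11 of 14 Trps1 gRNA cells and 1876 CPM in 14 of 15 control gRNA cells, and Lgmn, an asparagine-specific protease, had 394 and 683 CPM. Neither met the call. Ciita, with 0 and 4.07 CPM, H2-Eb2 and H2-Ob lay under the minimum level.

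Of 16 genes of the class II list, 13 passed the minimum, and 11 of these (84.6%) were lower, against 17.2% of all genes tested, and 0 were higher. The median log2 ratio was -3.88, and -5.47 with the 2 genes that had no read placed at their floor, against 0.09 over all genes. The count of lower genes stayed between 10 and 13 when each of the 29 cells was left out in turn. At 10 CPM or more, a Trps1 gRNA cell held a median of 1.5 genes of the list (0 to 6) and a control gRNA cell a median of 9 (1 to 11).

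**Figure D1:**
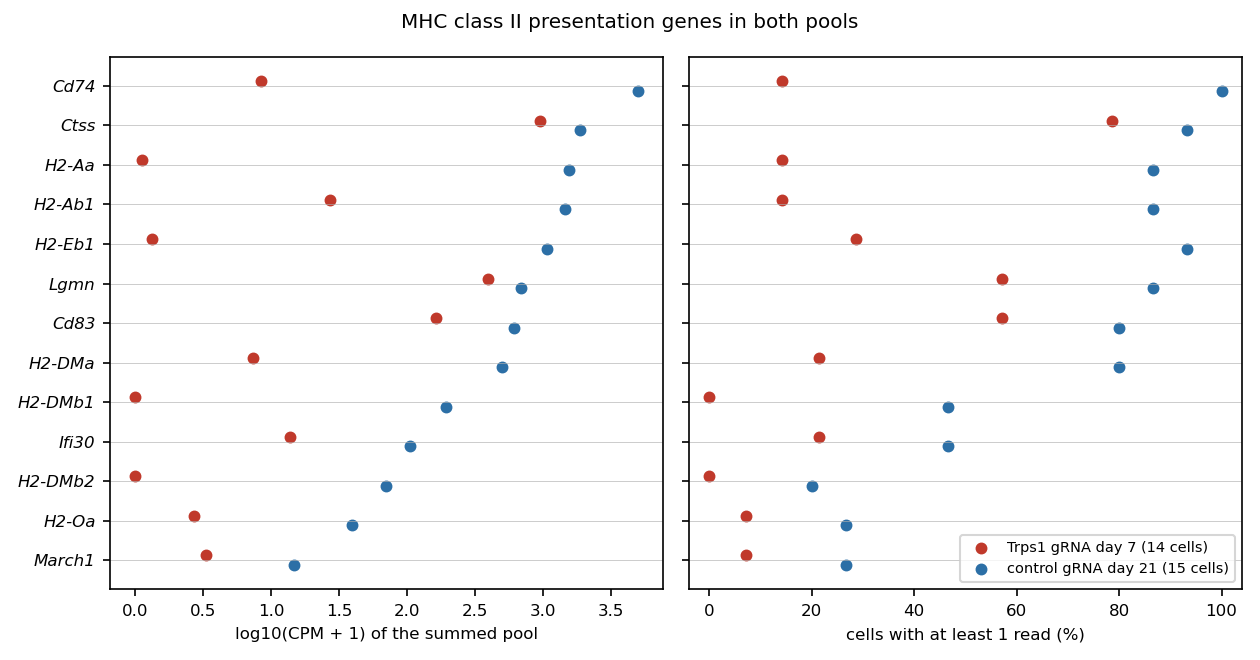
Levels of the 13 class II presentation genes that passed the minimum, as log10(CPM + 1) of the summed pool (left) and as the percentage of cells with at least 1 read (right), for 14 Trps1 gRNA day 7 cells (red) and 15 control gRNA day 21 cells (blue). Every red point lies left of its blue partner, with the smallest gaps at Ctss and Lgmn, which did not meet the call.

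Markers of microglia, cells that hold class II genes themselves, were lower in part. Of 21 microglial markers tested, 12 were lower and 2 higher in Trps1 gRNA cells, with a median log2 ratio of -1.12. Without control cell 21C2, 7 were lower, and the median stayed between -1.39 and -0.81 as each cell was left out. Their summed level was 5620 CPM in the Trps1 gRNA pool, with single cells at 11.99 to 13985 CPM, and 10945 CPM in the control gRNA pool, with cells at 169.8 to 23193 CPM. C1qa had 415 and 1729 CPM, Cx3cr1 68.9 and 534 CPM and Tmem119 19.8 and 251 CPM in the Trps1 gRNA and control gRNA pools. The exceptions were P2ry12, a purine receptor, at 218 CPM against 77.6 CPM, and Fcrls at 362 CPM against 60.3 CPM, of which P2ry12 lost the call without 7T_9, 7T_15 or the averaged pair. Ptprc, the leukocyte antigen CD45, had no read in Trps1 gRNA cells and 5.003 CPM in control gRNA cells. The in-slice controls held these markers as well, at 4209 and 4361 CPM. For macrophages, monocytes and dendritic cells 2 of 14 markers passed the minimum, and their sum, 1129 against 2057 CPM, was almost all Lyz2. Single cells ran from 0 to 6925 CPM for this list in Trps1 gRNA cells and from 0 to 12127 CPM in control gRNA cells. Cd163, Lyve1, Ccr2, Ly6c2, Flt3, Zbtb46 and Clec9a were at 0 in the Trps1 gRNA pool, while Pf4 and Plac8 were at 0 in both. No marker of T and NK cells passed the minimum. The part of these cell types in the class II difference was not tested.

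Genes of class I presentation, which display peptides of the cell's own proteins, were mostly lower. Of 22 tested, 16 (72.7%) were lower, against 17.2% of all genes tested, and 0 higher, with a median log2 ratio of -1.95. Without control cell 21C1, 12 of 21 were lower. B2m, the light chain of all class I molecules, had 909 CPM (895 to 924) in the Trps1 gRNA pool and 2244 CPM (2222 to 2266) in the control gRNA pool. It ran from 0 through 695 to 5830 CPM in Trps1 gRNA cells and from 13.2 through 2098 to 4903 CPM in control gRNA cells, so the groups overlapped widely. The heavy chain H2-D1 had 572 and 1564 CPM, and the heavy chain H2-K1, at 530.3 and 953 CPM, did not meet the call. The immunoproteasome genes Psmb8 (70.6 against 335 CPM) and Psmb9 (0.475 against 90.7 CPM) and the peptide transporter Tap1 (2.02 against 117 CPM) were lower, and so was Nlrc5, the coactivator of class I genes, at 0.0593 against 38.1 CPM. The call of Tap1 ended without control cell 21C1 or 21C3, and that of Nlrc5 without 21C4 or 21C8. Those of H2-Q6, H2-Q7, H2-T22, H2-M3, Tapbp, Tapbpl and Canx also each ended when 1 control gRNA cell was left out.

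Chemokines and complement moved the same way. Of 14 chemokines tested, 8 were lower and 1, Cxcl10 (142 against 40.2 CPM), was higher. Ccl5, which attracts T cells, had 63.1 CPM in the Trps1 gRNA pool, nearly all from cell 7T_5 at 875 CPM, and 479 CPM in the control gRNA pool. Ccl2, which attracts monocytes, had 1.66 CPM in 2 of 14 Trps1 gRNA cells and 167 CPM in 10 of 15 control gRNA cells. Complement beyond C1q had 5 of 8 genes lower and 0 higher, and 3 of 6 lower without control cell 21C1. C3, the central component, had 0.237 CPM in 2 of 14 Trps1 gRNA cells and 419 CPM in 10 of 15 control gRNA cells, while the in-slice controls held 358 CPM of it in sum, from 1 of 2 libraries. Itgb2, the beta chain of complement receptor 3, had no read in Trps1 gRNA cells and 182 CPM in control gRNA cells. Against the counting floor of 3 reads it was at least 1021-fold lower. Ccl5 also had 318 CPM in the in-slice controls, likewise from 1 of 2 libraries.

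Interferon response genes went both ways. Of 25 tested, 9 were lower, 4 higher and 12 neither, with a median log2 ratio of -0.39. Among the lower ones were Gbp2 (2.08 against 250 CPM), Gbp3 (24.9 against 131 CPM), Igtp (11.3 against 96.0 CPM), Irf1 (18.3 against 85.5 CPM), Irf8 (146 against 394 CPM), Ifit1, Ifi44 and Zbp1. The higher ones were Irf7 (133 against 1.04 CPM, 3 of 14 against 1 of 15 cells), Usp18 (139.6 against 2.20 CPM), Bst2 (246 against 42.2 CPM) and Oasl2 (51.0 against 10.1 CPM). Without control cell 21C4 the lower genes numbered 5 and the median was 0.23. It was also above 0 without cells under 2000 genes and without cells under 10 DsRed reads, at 0.19 in both cases, so the list held no direction. The number of higher genes dropped to 1 when the cell of the averaged pair, 7T_13 and 7T_14, was left out, and each of the 4 higher calls ended without either of 2 Trps1 gRNA cells. Of the lower ones, Gbp2, Gbp3, Irf1 and Irf8 kept the call when any single cell was left out.

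**Figure D2:**
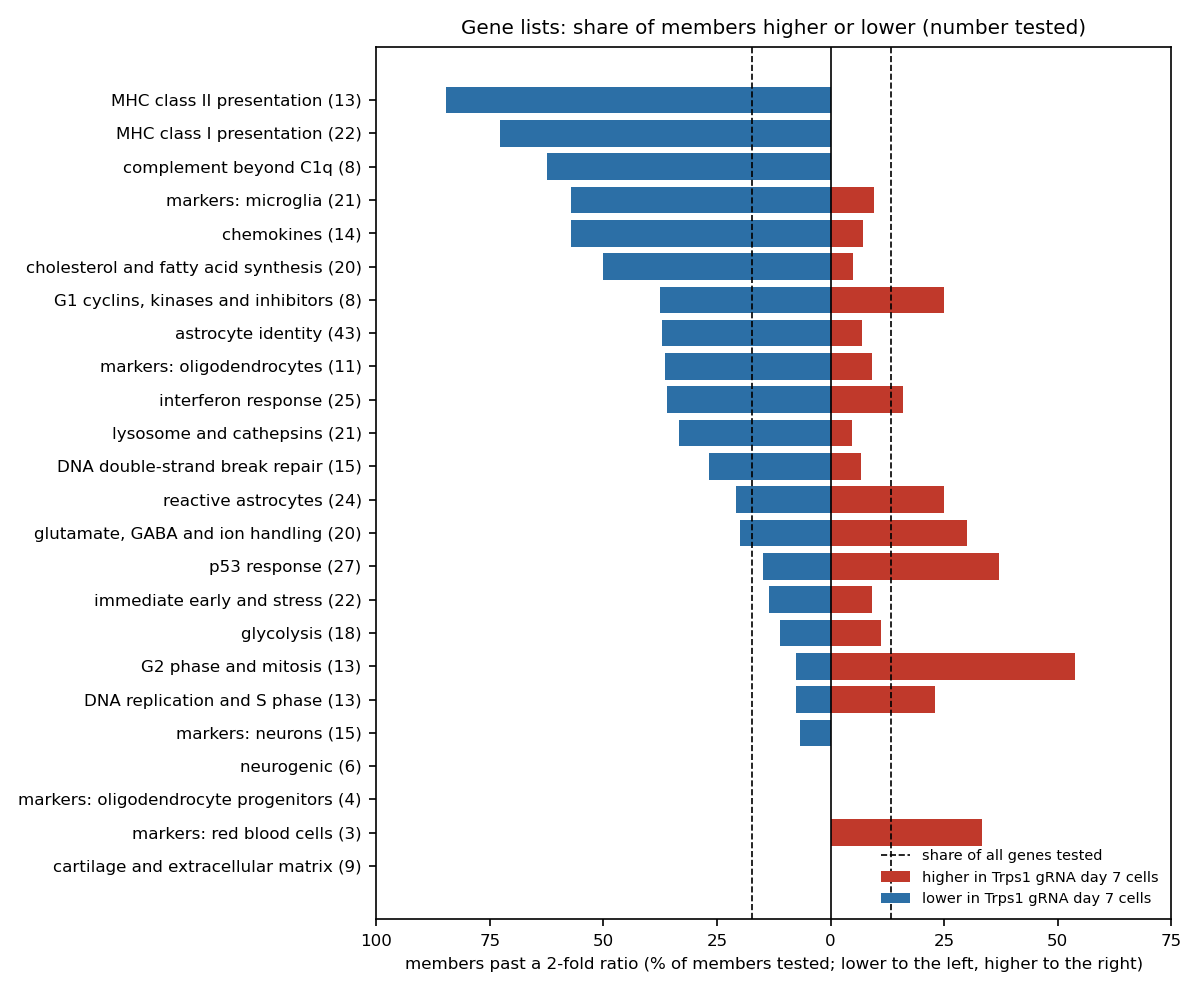
Share of the members tested in each list that were lower (blue, to the left) or higher (red, to the right) in Trps1 gRNA day 7 cells; the number tested is in parentheses, and lists with fewer than 3 genes tested are not drawn. The dashed lines mark the shares over all genes tested, 17.2% lower and 13.4% higher; the class II list reaches 84.6% lower and the mitosis list 53.8% higher.

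A part of the p53 targets was higher in the Trps1 gRNA day 7 pool, through a part of its cells. Of 31 genes in the list, 27 passed the minimum, and 10 of these (37.0%) were higher, against 13.4% of all genes tested, while 4 were lower and 13 neither. The median log2 ratio was 1.69 with all cells and 0.27 without the highest cell of each gene. The summed level was 2790 CPM in the Trps1 gRNA pool and 1304 CPM in the control gRNA pool. Single Trps1 gRNA cells ran from 0 through 981 to 9830 CPM, and control gRNA cells from 1.12 through 1253 to 2307 CPM, so the median cell of the Trps1 gRNA group was the lower one. At 10 CPM or more, a Trps1 gRNA cell held a median of 4.5 genes of the list (0 to 17) and a control gRNA cell a median of 6 (0 to 16). The highest cell was 7T_12, without which 6 of 27 genes were higher.

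Cdkn1a (ENSMUSG00000023067, chromosome 17, 29090976 to 29100727, plus strand), the p53 target that inhibits cyclin-dependent kinases, did not meet the call. It had 308 CPM (300 to 317) in the Trps1 gRNA pool, where cells ran from 0 through 0 to 1927 CPM, and 188 CPM (182 to 195) in the control gRNA pool, where they ran from 0 through 3.07 to 798 CPM. It was read in 6 of 14 Trps1 gRNA cells and 8 of 15 control gRNA cells. The log2 ratio was 0.70, and -0.23 without the highest cells, and its highest Trps1 gRNA cell was 7T_12.

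The targets that met the call act at several points. Among regulators of p53 itself, Mdm2, its ubiquitin ligase, had 92.3 CPM in 6 of 14 Trps1 gRNA cells and 25.1 CPM in 5 of 15 control gRNA cells (log2 ratio 1.69). Ccng1, cyclin G1, had 214 and 35.9 CPM, and its call ended without cell 7T_6 or 7T_12. Phlda3, an inhibitor of Akt signalling, had 212 CPM in 7 of 14 Trps1 gRNA cells and 27.7 CPM in 4 of 15 control gRNA cells, with a log2 ratio of 2.73, and 3.86 without the highest cells. Sesn1, a sestrin that restrains growth signalling, had 224 CPM in 6 of 14 Trps1 gRNA cells and 17.6 CPM in 4 of 15 control gRNA cells. Zmat3, an RNA-binding protein, had 145 and 23.5 CPM, and Plk2, a polo-like kinase read in 10 cells of each pool, had 413 and 111 CPM. The call of Plk2 ended without 7T_12 or without the averaged pair, 7T_13 and 7T_14. Ddit4, an inhibitor of mTOR signalling, had 37.9 CPM in 6 of 14 Trps1 gRNA cells and no read in 15 control gRNA cells. Against the counting floor of 3 reads it was at least 229.6-fold higher. The death genes Bbc3, which encodes PUMA, at 84.0 against 0.935 CPM and Eda2r, a death receptor, at 64.5 against 1.87 CPM came from 3 and 2 Trps1 gRNA cells and lost the call without 1 of them. Psrc1, at 77.5 against 6.98 CPM, lost it without 7T_6.

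The lower members included p53 itself. Trp53 had 21.4 CPM in 2 of 14 Trps1 gRNA cells and 70.0 CPM in 7 of 15 control gRNA cells, and its call ended without control cell 21C16. Btg2, an antiproliferative gene that is also an immediate early gene, had 127 CPM in 9 of 14 Trps1 gRNA cells and 326 CPM in 14 of 15 control gRNA cells. The call of Btg2 ended without 21C2, 21C11 or 21C12. Rrm2b, the ribonucleotide reductase subunit for repair, had 0.564 and 32 CPM, and Ei24 had 3.86 and 53.9 CPM. Bax, the pore-forming death protein, had 71.3 and 75.3 CPM and Fas, a death receptor, 32.9 and 30.5 CPM, and neither met the call. Of 15 genes of double-strand break repair tested, 4 (26.7%) were lower and 1 (6.67%), Xrcc6, was higher, against 17.2% and 13.4% of all genes tested. The 4 lower calls, of Parp1, Rad50, Rnf8 and Dclre1c, each ended when 1 control gRNA cell was left out.

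**Figure D3:**
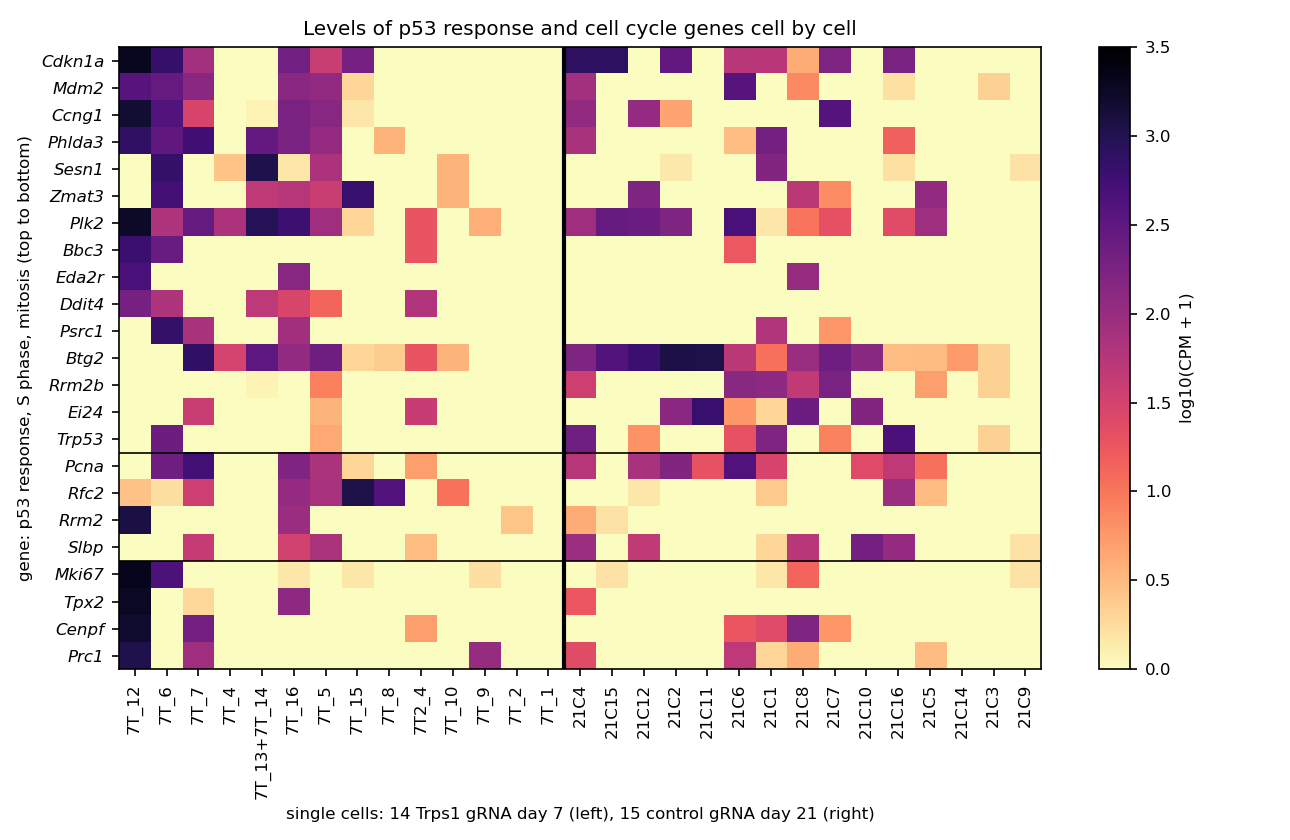
Levels of p53 response genes (top block), S phase genes (middle) and mitotic genes (bottom) as log10(CPM + 1) in each of the 14 Trps1 gRNA day 7 cells (left of the thick line) and the 15 control gRNA day 21 cells (right), ordered within each group by the summed level of the p53 list. The highest summed p53 levels of the Trps1 gRNA group stand in the leftmost cells, 7T_12 and 7T_6, and the highest levels of Mki67, Tpx2, Cenpf and Prc1 in 7T_12.

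Pcna (ENSMUSG00000027342, chromosome 2, 132249162 to 132253314, minus strand), the sliding clamp of DNA replication and also a p53 target, did not meet the call. It had 80.6 CPM (76.4 to 85.0) in the Trps1 gRNA pool, where cells ran from 0 through 0 to 550.2 CPM, and 62.6 CPM (59.0 to 66.4) in the control gRNA pool, where they ran from 0 through 18.5 to 404 CPM. It was read in 6 of 14 Trps1 gRNA cells and 9 of 15 control gRNA cells, and the log2 ratio was 0.34. Of 33 genes of replication and S phase, 13 passed the minimum, with 3 higher and 1 lower. Rrm2, the S phase subunit of ribonucleotide reductase, had 128 CPM, nearly all from cell 7T_12 at 1188 CPM, and 0.220 CPM. Rfc2, a subunit of the clamp loader, had 172 CPM in 8 of 14 Trps1 gRNA cells and 8.08 CPM in 4 of 15 control gRNA cells. The call of Rrm2 ended without 7T_12 or 7T_16. Slbp, which binds histone mRNA, was lower, with a log2 ratio of -1.16, and that call ended without any 1 of 5 cells, at -0.69 without 21C10. Of 8 G1 cyclins, kinases and inhibitors tested, 2 were higher and 3 lower, with 0 higher without 7T_12 and 0 lower without 21C12. The median log2 ratio of the S phase list was 0.65 and ranged from -0.36 to 1.27 with each cell left out, so no direction held.

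Some mitotic genes were higher, each from few cells. Of 28 genes of G2 phase and mitosis, 13 passed the minimum, with 7 higher (53.8%, against 13.4% of all genes tested) and 1, Hmgb2, lower. The number of higher genes was 2 with a pseudocount of 20 CPM and 11 with 1 CPM. Mki67, a marker of cycling cells, had 245 CPM in the Trps1 gRNA pool and 0.385 CPM in the control gRNA pool. It reached 2085 CPM in cell 7T_12 and 436 CPM in cell 7T_6, and in none of the other 12 Trps1 gRNA cells did it pass 1 CPM. Tpx2, a spindle factor, had 194 and 0.880 CPM, Cenpf, a kinetochore protein, 167 and 6.82 CPM and Prc1, a cytokinesis protein, 120.4 and 4.12 CPM. Without 7T_12, 3 of the mitotic genes tested were higher. The calls of Mki67, Tpx2, Cenpf and Prc1 each ended without 7T_12 or 1 other Trps1 gRNA cell, and that of Hmgb2 without 21C2 or 21C16. A read of at least 1 gene of the list was found in 11 of 14 Trps1 gRNA cells and 11 of 15 control gRNA cells. At 10 CPM or more, a Trps1 gRNA cell held a median of 1.5 genes of the list (0 to 11) and a control gRNA cell a median of 1 (0 to 11), and 3 of 14 and 2 of 15 cells held at least 5. In the summed level of the list, single Trps1 gRNA cells ran from 0 through 112 to 7690 CPM and control gRNA cells from 0 through 49.0 to 699.9 CPM. After 7T_12 the highest cells were 7T_10 at 6028 CPM, of which Ccnb1, the mitotic cyclin B1, made up 3325 CPM, then 7T_7 at 1879 CPM and 7T_6 at 1088 CPM.

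**Figure D4:**
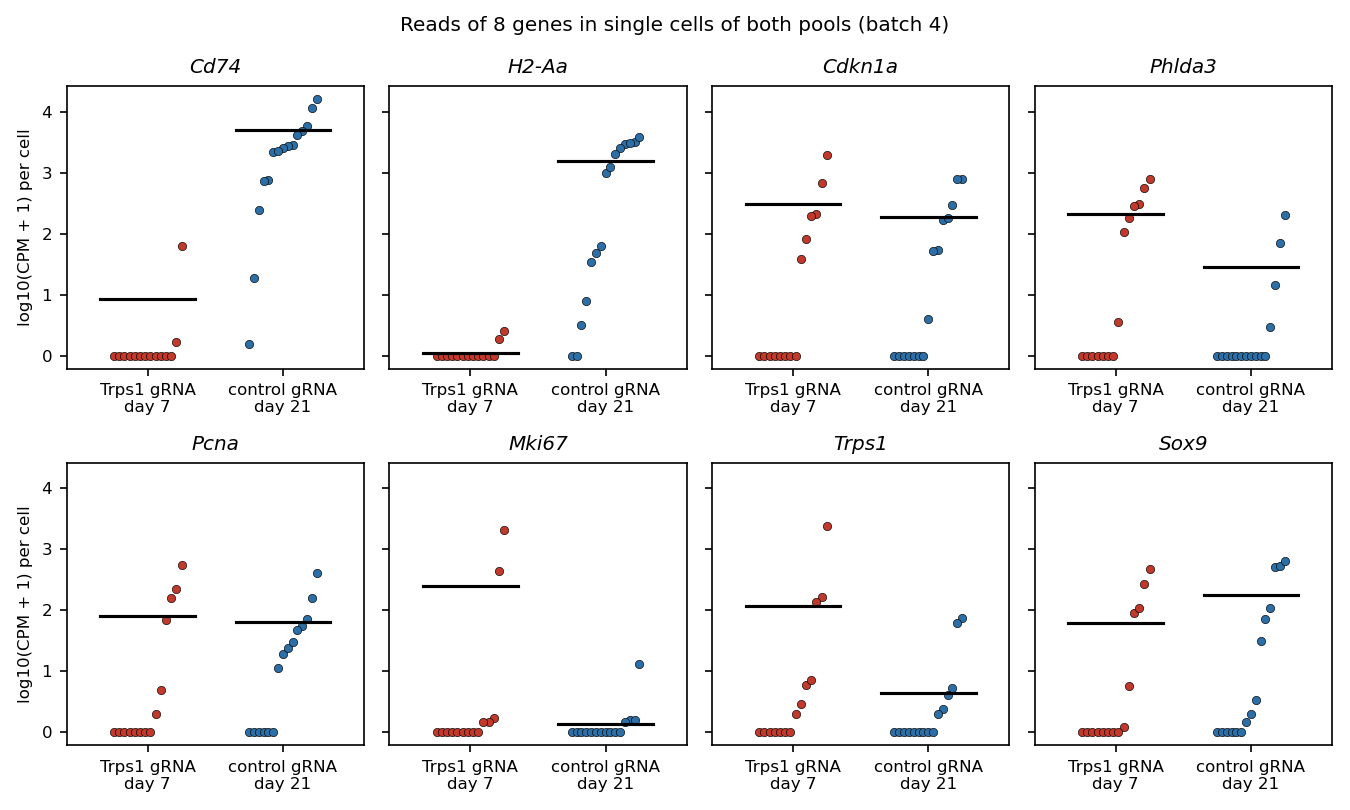
Levels of 8 genes in single cells, as log10(CPM + 1), in 14 Trps1 gRNA day 7 cells (red) and 15 control gRNA day 21 cells (blue); the black bar is the level of the summed pool. Cd74 and H2-Aa separate most cells of the groups, whereas Cdkn1a, Pcna, Trps1 and Sox9 overlap and the bar of Mki67 rests on 2 red cells.

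For the astrocyte label, 44 genes of astrocyte identity were read, of which 43 passed the minimum. Their summed level ran from 1593 to 34513 CPM in Trps1 gRNA cells and from 4156 to 87108 CPM in control gRNA cells. The in-slice controls of batch 4, made without taking a cell, had 2499 and 2856 CPM. That is above Trps1 gRNA cells 7T_2 (1593 CPM) and 7T2_4 (1843 CPM), so the summed level does not check the label. In several cells of both groups 1 gene made up most of the sum. Among them, Apoe made up 3848 of 4156 CPM in control cell 21C3 and 26141 of 33911 CPM in the averaged pair. Cst3 made up 3623 of 4738 CPM in 7T_10 and 3944 of 7750 CPM in 7T_1, and Slc1a3 13798 of 14259 CPM in 21C14. Microglial markers summed above astrocyte identity in Trps1 gRNA cell 7T_1, at 13985 CPM. They did so too in control cells 21C2 (23193 against 14987 CPM), 21C4 (14449 against 13351 CPM) and 21C5 (9146 against 5025 CPM). At 10 CPM or more, a Trps1 gRNA cell held a median of 15.5 astrocyte identity genes (5 to 40) and a control gRNA cell 19 (3 to 41). Of the 43 genes, 16 were lower and 3 higher, with a median log2 ratio of -0.97. Apoe, the main lipid carrier of astrocytes, had 6533 and 8587 CPM, Cst3 1912 and 3748 CPM and Clu 1124 and 1906 CPM in the Trps1 gRNA and control gRNA pools, and none of these met the call. Slc1a3, the glutamate transporter GLAST, had 726 CPM in 12 of 14 Trps1 gRNA cells and 1865 CPM in 15 of 15 control gRNA cells. Gap junction genes were lower, with Gja1 at 217 against 540 CPM and Gjb6 at 27.4 against 449 CPM. Cldn10 had 5.73 and 241 CPM, Sparcl1, a synapse-promoting secreted protein, 384 and 1896 CPM, and Mfge8, an opsonin, 16.5 and 181 CPM. The higher members were Aldh1l1, a folate enzyme (220 against 28.04 CPM), Mlc1, a membrane protein of processes around vessels (231 against 49.0 CPM), and Mt3, a metallothionein (454 against 195 CPM). Several lower calls depended on single control gRNA cells. Those of Slc1a3, Aldoc, Gja1 and Gpr37l1 ended without cell 21C15, and 8 genes of the list were lower without 21C1. The call of Aldh1l1 ended without 7T_7 or 7T_16, and the number of higher genes ran from 2 to 9 as each cell was left out.

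Genes of reactive astrocytes did not share a direction. Of 24 tested, 6 were higher and 5 lower, with a median log2 ratio of 0.06, and 3 of 22 were lower without control cell 21C1. Gfap, the intermediate filament of reactive astrocytes, had 536 CPM (524 to 547) in the Trps1 gRNA pool and 539.6 CPM (529 to 550) in the control gRNA pool, and was read in 12 cells of each. Vim, the filament that is raised early after injury, had 349.5 CPM in 10 of 14 Trps1 gRNA cells and 107 CPM in 7 of 15 control gRNA cells, with medians of 35.0 and 0 CPM per cell. S100a6 had 291 and 13.5 CPM, of which 58.3 CPM remained in the Trps1 gRNA pool without cell 7T2_4. Lgals1 had 122 and 17.1 CPM, and Timp1, an inhibitor of matrix proteases, 54.0 CPM in 4 of 14 Trps1 gRNA cells and no read in control gRNA cells. Serpina3n had 65.7 and 228 CPM, Srgn 2.49 and 155 CPM, and Tnc had no read in Trps1 gRNA cells and 35.8 CPM in control gRNA cells. The calls of Timp1, Serpina3n and Tnc each ended without either of 2 cells.

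Metabolic and transport lists varied in their counts, to be read against 17.2% lower and 13.4% higher over all genes tested. Cholesterol and fatty acid synthesis had 10 of 20 genes lower and 1, Mvd, higher, with a median log2 ratio of -1.33. Hmgcs1, which opens the sterol pathway, had 25.2 and 184 CPM, Sqle 0.504 and 118 CPM and Msmo1 59.0 and 164 CPM in the Trps1 gRNA and control gRNA pools. Of 20 genes of glutamate, GABA and ion handling, 6 (30%) were higher and 4 (20%) lower. The list's median log2 ratio was 0.84, but 0.04 without the highest cells, and without 7T_12 there were 4 higher genes. The higher ones included Slc38a3, a glutamine transporter, at 467 against 72.4 CPM, and Gria2, an AMPA receptor subunit, at 382 against 73.3 CPM. Car2, a carbonic anhydrase, was higher as well, at 319 against 67.1 CPM. The lower ones included Kcnj10, the potassium channel Kir4.1, at 22.2 against 79.8 CPM, and without control cell 21C1 there were 2 lower genes. The calls of Sqle, Mvd, Car2 and Kcnj10 each ended without either of 2 cells, and that of Msmo1 without 21C15. Lysosomal genes had 7 of 21 (33.3%) lower and 1 higher. Glycolytic genes had 2 of 18 (11.1%) each way, and immediate early genes 3 of 22 (13.6%) lower and 2 (9.09%) higher. Both of these lists lay under the shares over all genes in each direction. The genes of cartilage and matrix, in which TRPS1 is best known to act, had 0 of 9 called either way. Another 15 lay under the minimum, and 13 members had no read in the Trps1 gRNA pool, against 3 in the control gRNA pool. Col9a2 and Col9a3 had log2 ratios of -3.41 and -3.03, but -0.41 and -0.89 without the highest cells. The absence of calls thus does not show that this list was unchanged. The neurogenic list had 0 of 6 called, with 12 under the minimum.

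Beyond the lists, 147 genes (1.43%) were higher and 635 (6.19%) lower by a stricter rule that also asked for 20 CPM, a read in 40% of cells of the higher pool and a difference of 20 percentage points in the share of cells. Shares of cells depend on the number of genes read per cell, with medians of 3401 in Trps1 gRNA and 5498 in control gRNA cells. More genes can thus pass as lower, and the 2 counts are no measure of direction. Among the 12 leading higher genes was Fabp7, the brain fatty acid binding protein of radial glia and astrocytes. It had 188 CPM (181 to 194) in 8 of 14 Trps1 gRNA cells, from 0 through 0.548 to 1012 CPM, and 3.52 CPM (2.71 to 4.49) in 2 of 15 control gRNA cells, from 0 through 0 to 40.6 CPM. Srp68, a subunit of the signal recognition particle, led the higher genes with 418 CPM in 7 of 14 Trps1 gRNA cells and 1.05 CPM in 3 of 15 control gRNA cells. Ninj1, a membrane protein of cell rupture, had 202 and 13.5 CPM, Ston2, an endocytic adaptor, 230.4 and 6.10 CPM, and Capns1, the small calpain subunit, 116 and 3.85 CPM. Fopnl, Ranbp3, Ddx41, Lrrfip1, Arhgef40, Pcbp4 and the microglial gene Fcrls made up the rest, at 162 to 362 CPM in the Trps1 gRNA pool and 0.275 to 60.3 CPM in the control gRNA pool. Pcbp4 overlaps Gpr62 and Arhgef40 overlaps Zfp219 on the other strand, and no source used here says whether strand was counted, so reads of such partners cannot be told apart.

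The 12 leading lower genes were Cd74, H2-Aa, H2-Ab1, H2-Eb1, H2-DMa, Ccl5 and C3, described above, and 5 others. Arg1, the arginase of alternatively activated myeloid cells, had no read in 14 Trps1 gRNA cells and 611 CPM (599 to 622) in 11 of 15 control gRNA cells. The median control gRNA cell had 139.7 CPM of Arg1. Against the counting floor of 3 reads Arg1 was at least 3430-fold lower. Clec7a, the beta-glucan receptor dectin-1 of myeloid cells, had 17.6 CPM in 4 of 14 Trps1 gRNA cells and 425 CPM in 10 of 15 control gRNA cells. Ctsh, a cathepsin, had 10.6 and 515 CPM, and Cmtm6, a protein that keeps PD-L1 at the surface, 6.41 and 335 CPM. Gatm, the first enzyme of creatine synthesis, had 1.84 CPM in 3 of 14 Trps1 gRNA cells and 389 CPM in 11 of 15 control gRNA cells, and 1 of 2 in-slice controls held it at 2582 CPM. H2-DMa overlaps Brd2 on the other strand.

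Neuronal and oligodendrocyte markers were present in both pools. Neuronal markers summed to 3292 CPM in the Trps1 gRNA pool and 2377 CPM in the control gRNA pool, with 1 of 15 genes, Gad1, lower and 0 higher, and 4 of them at 0 in Trps1 gRNA cells. Oligodendrocyte markers summed to 2088 and 3651 CPM, with 4 of 11 lower and Mobp higher. Cell 21C3 held 57536 CPM of them, and without it the list's median log2 ratio was 0.74 in place of -3.10. Endothelial markers were at or near 0, with Flt1 at 0 and 27.5 CPM. Of B cell markers only Ighm passed the minimum, at 280.1 and 259 CPM, and red blood cell genes summed to 81.8 and 47.0 CPM.

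No batch holds both guides at both days, so other pools are set side by side. Batch 4 also has samples labelled Trps1 gRNA at day 21, but without a column of counts. Its Sox9 gRNA and Sox9+Trps1 gRNA pools of day 21 (16 and 13 cells) had 4634 and 8867 CPM of the class II list. The p53 list summed to 707 and 688 CPM in them, and microglial markers to 5157 and 12552 CPM. Pools of 2 other batches follow. In batch 2 control gRNA cells differ by day, and in batch 5 Trps1 gRNA cells of day 21 stand beside cells labelled no gRNA, for which no day is given. Each batch was deposited as its own table, levels are not comparable between batches beyond CPM, and no difference was computed across them. In batch 2, which holds control gRNA cells of both days, Cd74 had 1841 CPM in 7 of 7 cells of day 21 and 5.61 CPM in 1 of 8 cells of day 7, and H2-Aa 871 and 0.0550 CPM. In batch 5, Cd74 had 1420 CPM in 16 of 30 Trps1 gRNA cells of day 21 and no read in 22 cells with no gRNA, and H2-Aa 312 and 0 CPM. The whole class II list summed to 7224 CPM at day 21 and 2170 CPM at day 7 in control gRNA cells of batch 2. Single cells of that day 7 pool ran from 0 to 11130 CPM. In batch 5 the list summed to 5806 CPM in Trps1 gRNA cells of day 21 and 212 CPM in cells with no gRNA. The parts of day, guide, batch and animal in these values were not tested.

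In batch 2, the p53 targets Cdkn1a, Mdm2 and Sesn1 were higher in control gRNA cells of day 7 than of day 21. Cdkn1a had 26.5 CPM in 4 of 7 control gRNA cells of day 21 and 589 CPM in 7 of 8 of day 7, Mdm2 2.48 and 196 CPM, and Sesn1 0 and 151 CPM. The whole list summed to 809 CPM at day 21 and 2214 CPM at day 7 in these control gRNA cells, with median cells at 622 and 1400 CPM. In batch 4 the median cell went the other way, at 1253 CPM in control gRNA cells of day 21 and 981 CPM in Trps1 gRNA cells of day 7. Cdkn1a did not meet the call there. In batch 5, Trps1 gRNA cells of day 21 had 61.7 CPM of Cdkn1a, 74.4 CPM of Mdm2 and 1918 CPM of the whole list, against 29.3, 31.01 and 888 CPM in cells with no gRNA. Phlda3 was at or near 0 in both control gRNA pools of batch 2, at 0 CPM at day 21 and 1.05 CPM at day 7. Vim had 93.8 CPM at day 21 and 571 CPM at day 7 in control gRNA cells, and Fabp7 78.2 and 296 CPM. Mki67 had no read in either control gRNA pool of batch 2 and 0.0756 CPM in Trps1 gRNA cells of day 21, so its high cells were seen in the Trps1 gRNA day 7 pool of batch 4 alone among these 6 pools. The day 7 pools differ in batch as well as in guide, and these values do not tell the parts of guide, day and animal apart.

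**Figure D5:**
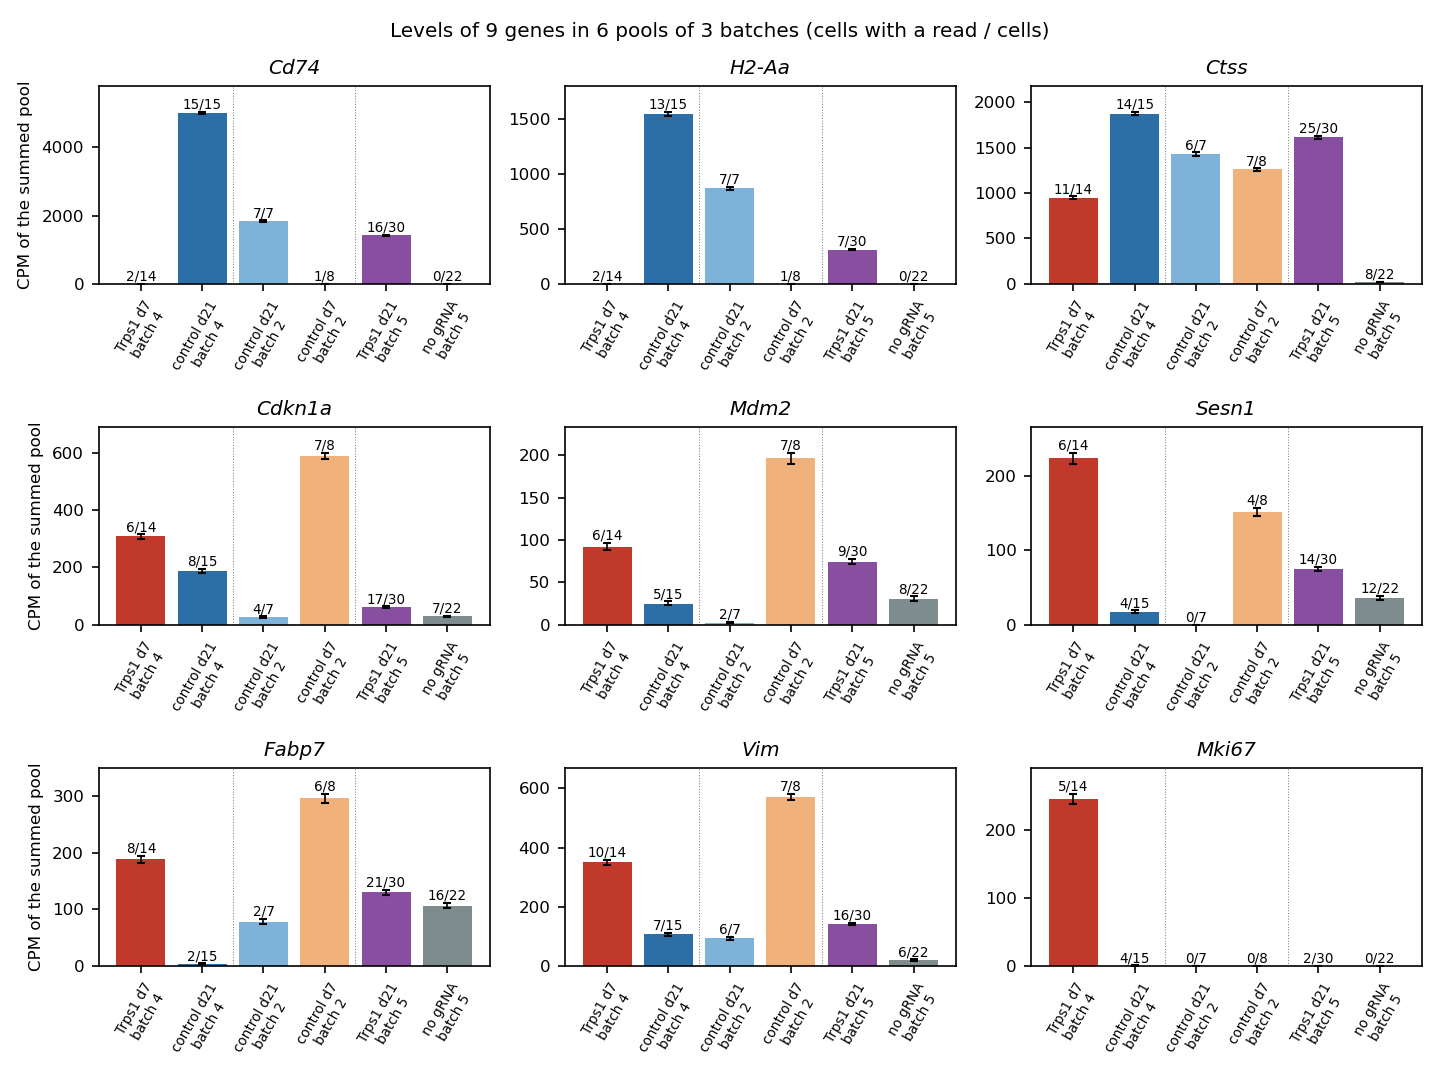
Levels of 9 genes in 6 pools, as CPM of the summed pool with exact 95% Poisson intervals, with the number of cells with a read over the number of cells above each bar; dotted lines separate the batches. The bars of Cd74 and H2-Aa are near 0 in both day 7 pools and in cells with no gRNA, and those of Cdkn1a, Mdm2 and Vim are highest in the control gRNA day 7 pool of batch 2.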

How the data were processed

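Single-cell Smart-seq2 libraries were analysed from raw counts of reads per gene, which the authors deposited as a separate table for each batch. The values were whole numbers with differing totals. Per the submitters' processing notes, the tools were STAR 2.6.0a and RSEM 1.3.0 and the builds GRCm38 and mm10; their roles are not stated. Rows naming no gene (0.379% of counts in batch 4, 22.3% in batch 2, 0.137% in batch 5) were left out of totals. Of 34636 gene rows in batch 4, 34531 matched a symbol. Totals ran from 325744 to 2486867 reads per cell in the 2 pools, which held 16850394 (Trps1 gRNA) and 18189559 reads (control gRNA).

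Cells carry no animal label, so counts were summed per pool and no count model was fitted. CPM was computed over all reads in genes, with exact Poisson intervals, and shares of cells can be given exact binomial intervals, both at 95%. Where a pool held no read, the floor is 3 counts over the pool, which covers counting only and no difference between cells or animals. Libraries 7T_13 and 7T_14 were averaged although they differed by more than counting noise (chi-square per gene 3.23, against 269.8 or more to other cells), and so was a like pair in batch 5. The ratios used a pseudocount of 5 CPM and genes with a mean of 5 CPM or more. A run on simulated cells with known folds checked only that large changes were found in their direction. The share of unchanged genes that spread between cells can call is not reported here. Named genes were Trps1, Sox9, Cdkn1a, Cd74 and Pcna, the 12 leading genes each way by the ratio without the highest cells under the stricter rule in the report, the 4 most abundant members of each list, and called members of the p53, replication, class II and astrocyte identity lists; further members of lists and marker sets were named after their values were seen. Some genes are not reported here. The members and lists were chosen with earlier results of these data known. Alternatives were other pseudocounts and minima, edgeR 4.0.16 TMM and DESeq2 1.42.0 size factors as scalings, other totals, weighting and cells left out. Python 3.11.15 (numpy 2.4.6, pandas 2.3.3, scipy 1.17.1, matplotlib 3.10.9) and R 4.3.3 were used. Coordinates are GRCm38, and promoters are RefSeq on GRCm38.p6.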

Additional observations from a re-analysis of the deposited data

Results flagged for a closer look

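Reads assigned to rows that name a fluorescent protein were seen outside the genes compared. The DsRed row held 1382 CPM in the Trps1 gRNA day 7 pool and 8330 CPM in the control gRNA day 21 pool, above the 424 CPM of the in-slice controls of batch 4. Under 10 DsRed reads were found in 5 of 14 Trps1 gRNA cells and 1 of 15 control gRNA cells. The GFP row held 52.9 CPM in the Trps1 gRNA pool and 21.8 CPM in the control gRNA pool, against 30.7 CPM in the in-slice controls. No source used here says which construct each row stands for, and the rows were used to place no cell in a group.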

How the results depend on the processing

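No paired analysis was possible because the result comes from no test and the labels pair no cells. With a pseudocount of 20 CPM, 636 genes were higher and 748 lower, since a larger addition draws low genes towards no difference. With a minimum of 20 CPM, 1163 genes were lower, of 6082 tested. Leaving out each cell in turn gave 919 to 1523 higher genes, fewest without 7T_16, and 1557 to 2261 lower genes, fewest without 21C4 and most without 7T_16. The oligodendrocyte median changed sign, to 0.74 without control cell 21C3. Of the 26 called genes among the 5 fixed and 24 leading ones, 2 lost the call under an alternative other than leaving out single cells. Trps1 lost it with a pseudocount of 20 CPM, without the cell of series 7T2 or without cells under 10 DsRed reads, and Sox9 with each cell weighted alike. The leading genes were picked for large ratios without the highest cells, so that they kept the call is no check of them. Over all genes, 636 of 1375 higher and 748 of 1768 lower calls stayed with a pseudocount of 20 CPM. The class II list kept 0 higher genes and 9 to 12 lower ones under these alternatives, and the p53 list 8 to 12 higher ones. The mitosis list had 2 to 11 higher ones, fewest with a pseudocount of 20 CPM and most with 1 CPM, and the interferon list had 1 higher and 4 lower with 20 CPM. No cell lay under 200000 reads, so that alternative is the same as the main one, and series 7T2 holds 1 cell and was not run alone. Depth limits a gene with no read to the floor of 3 reads over the pool, 0.178 CPM for the Trps1 gRNA pool and 0.165 CPM for the control gRNA pool.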
